A study of Homo sapiens with 32 samples.

Results

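The genes described here are 10 immediate-early regulators: the FOS family members FOS, FOSB and FOSL1, the JUN family members JUN, JUNB and JUND, the zinc-finger factor EGR1, the response genes IER2 and IER3, and the Krüppel-like factor KLF6. They were chosen by symbol, with earlier results of these data known, so the choice was not blind to the counts called below. Each gene is represented by the RefSeq transcript with the highest read total in the 32 libraries, among those whose id matched its symbol. All 10 had reads and passed the filter on low counts, among 18829 genes that could be named and 14427 with reads. The libraries were made by SLAM-seq, in which 4-thiouridine (s4U) is fed to cells, enters new RNA, and is alkylated by iodoacetamide so that reverse transcription reads it as a T-to-C change. A read with such a change is called labelled here. The readings are all reads of a gene, its labelled reads, and its labelled share, the percentage of its reads that were labelled.

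The cells were HCT116, a human colorectal carcinoma line, in 2 versions that both carried a doxycycline-inducible (tetON) OsTIR1, the plant F-box protein that directs auxin-bound degron proteins to the proteasome. The parental version had untagged IGF2BP3, an RNA-binding protein, and the tagged version was homozygous for mAID-IGF2BP3 at the endogenous locus. Each version was kept unstressed (DMSO) or stressed with 5 µg/mL tunicamycin for 5 h, an inhibitor of N-glycosylation that causes endoplasmic reticulum stress. Each of these was combined with DMSO vehicle or with 500 µM of the auxin indole-3-acetic acid (IAA) for 9 h. That gave 8 groups of 4 libraries, 1 for each combination of line, stress and auxin. Doxycycline (200 ng/mL, 24 h) and s4U (250 µM, 2 h) were given to every group, controls included, so every level below is from labelled cells with the inducer. The study asked what depleting IGF2BP3 does to RNA in resting and stressed cells. Replicates were wells of a 24-well plate, and nothing in the labels says that they were separate cultures on separate days, so p-values reflect only the scatter of these libraries, which may be technical. The labels do not say whether the tagged version was 1 clone or several.

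Reads in named genes numbered 2.56 M to 7.0 M per library, except in parental stressed auxin replicate 1, which had 0.99 M. This smallest library also had the lowest labelled percentage over all genes, 8.88% against 10.3 to 13.5%, and 15.1 T positions covered per read against 20.3 to 24.1. Results that rest on it are given with and without it. The stress was visible in DDIT3, a pro-apoptotic transcription factor of the unfolded protein response, which was 34.4-fold higher in stressed than in unstressed parental vehicle cells (edgeR adjusted p = 9.27e-18). IGF2BP3 RNA is not what the degron removes, and its level was not called different in any of the 16 comparisons, so these counts do not check the depletion of the protein. Of 7 epithelial markers, KRT19 was at a median of 914.0 CPM (reads of the gene scaled to a fixed library total) and VIL1 was at 0. Among 8 markers of other cell types, COL1A1 was at a median of 26.4 CPM, 4 were at 0 in every library, and the others did not exceed 1.03 CPM.

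Immediate-early genes are transcribed within minutes of a stimulus from factors already present in the cell, without new protein synthesis, and their RNAs are usually short-lived. FOS and JUN proteins pair through leucine zippers to form AP-1, a dimeric factor with many targets. EGR1 binds GC-rich sites, and mitogen-activated kinases reach its gene and FOS through serum response factor and its ternary complex partners. Many immediate-early RNAs carry AU-rich elements in their 3′ ends that speed decay.

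Upstream sequences are printed for EGR1, FOSB and JUN, which were called higher with stress in all 4 comparisons below and had a promoter entry. That of FOS, which was called in none, is printed too. KLF6 was also called in all 4 and had an entry, but is not printed. Its promoter held no TGACG. Of the 10 genes, 8 had an entry in the RefSeq promoter table (GRCh38.p14); FOSL1 and IER3 did not match. The printed sequences are the 250 bases before each annotated start, 5′ to 3′ on the gene's strand, with capitals marking matches to TGACG (a half-site of the cyclic AMP response element) on either strand and to the serum response element.
EGR1, chr5:138465229-138465478, plus strand: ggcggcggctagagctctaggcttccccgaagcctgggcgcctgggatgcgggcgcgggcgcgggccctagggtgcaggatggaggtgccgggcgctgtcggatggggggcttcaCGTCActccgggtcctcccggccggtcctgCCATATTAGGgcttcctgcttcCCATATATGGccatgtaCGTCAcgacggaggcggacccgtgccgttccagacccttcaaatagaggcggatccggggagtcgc
FOSB, chr19:45467746-45467995, plus strand: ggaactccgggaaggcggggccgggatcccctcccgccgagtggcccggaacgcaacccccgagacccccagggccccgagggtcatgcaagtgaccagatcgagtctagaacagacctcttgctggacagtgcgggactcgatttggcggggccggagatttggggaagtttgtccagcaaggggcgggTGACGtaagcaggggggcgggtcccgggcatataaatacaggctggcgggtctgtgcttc
JUN, chr1:58784048-58784297, minus strand: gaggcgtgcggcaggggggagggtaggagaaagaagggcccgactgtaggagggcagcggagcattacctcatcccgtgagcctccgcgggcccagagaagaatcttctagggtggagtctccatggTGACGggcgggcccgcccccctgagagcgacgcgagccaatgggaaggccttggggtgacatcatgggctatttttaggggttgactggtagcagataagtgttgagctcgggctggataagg
FOS, chr14:75278578-75278827, plus strand: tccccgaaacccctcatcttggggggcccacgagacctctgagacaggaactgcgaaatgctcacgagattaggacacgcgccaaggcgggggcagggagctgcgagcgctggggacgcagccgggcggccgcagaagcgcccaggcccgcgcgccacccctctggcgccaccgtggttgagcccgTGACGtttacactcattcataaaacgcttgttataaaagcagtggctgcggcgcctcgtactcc

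The TGACG half-site, searched on both strands (CGTCA on the other), lay in 7 of the 8 promoters, all but that of KLF6. It lay in 30.88% of 9236 promoters of tested genes and in 21.66% of all 27303 promoters of the same length. In FOS it began 64 bases before the start and in FOSB 60 bases before it. The full element TGACGTCA, which contains the half-site on both strands, was found in JUND only, against 3.05% of tested-gene promoters. EGR1 held 2 serum response elements (a CC, 6 A or T, GG motif that reads on both strands), CCATATTAGG at -105 and CCATATATGG at -83, and no other of the 8 promoters held one, against 0.97% of tested-gene promoters. The CCAAT box lay in 4 (JUN, JUNB, JUND and KLF6) against 35.66%. The AP-1 site TGACTCA, the EGR site GCGTGGGCG and TGATGNAAN, a response element of ATF4-type factors, were found in none of the 8, against 2.27%, 1.22% and 1.27%. A match is a string of letters in this window, and no binding was measured. Bases further upstream were not searched. The lack of a serum response element in FOS, or of any other match, therefore holds for this window only.

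**Figure D1:**
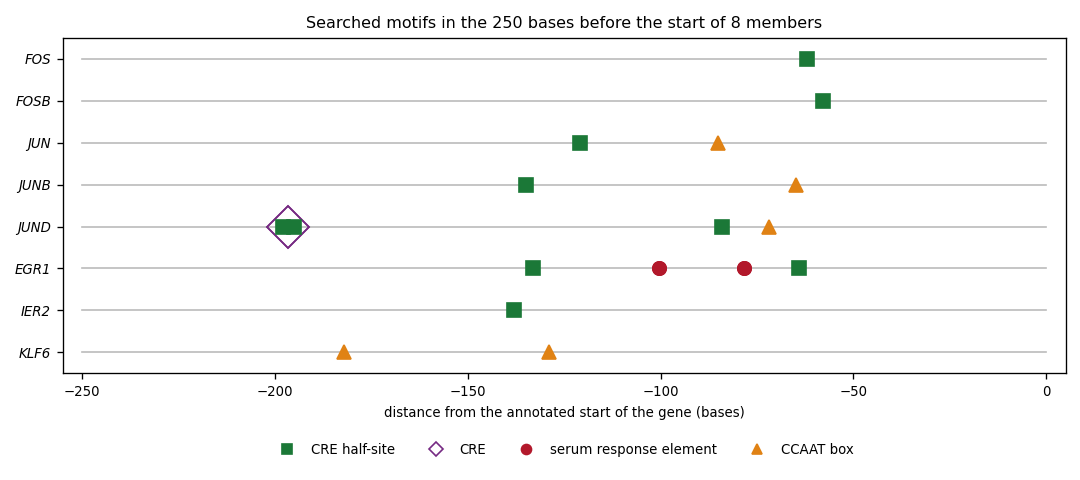
Positions of motif matches in the 250 bases before the annotated start of the 8 genes with a promoter entry, with distance from the start in bases on the x axis and 1 line per gene. The TGACG half-site appears on 7 lines, the serum response elements only on the EGR1 line, and the full cyclic AMP response element only on the JUND line.

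The 3′ ends hold the sequence that the counting read, because QuantSeq libraries start from the poly(A) tail. The counted regions of 9 genes were matched to a GENCODE v29 transcript of the same length, with a T content that differed by at most 1 base. The pentamer ATTTA, the core of AU-rich elements, had a median density of 1.53 per kb over 8840 tested regions. Its density was 8.14 per kb in IER3, 6.17 in FOS and 4.03 in JUNB, followed by 2.34 in JUN, 1.69 in KLF6, 1.5 in FOSL1, 1.38 in FOSB, 0.81 in EGR1 and 0.0 in IER2. Of regions within 20% of the same length, 2.5% held at least as many pentamers as IER3, 7.3% as FOS and 23.0% as JUNB. For the other genes it was 41.6% or more. JUNB held only 2 pentamers, in 496 bases. The nonamer TTATTTATT was present in FOS only, and in 7.6% of regions. The 3 densest are shown with ATTTA in capitals, as 30-base windows from the GRCh38 transcripts.
IER3, chr6:30743648-30743677, minus strand: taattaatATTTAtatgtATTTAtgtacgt
FOS, chr14:75282057-75282086, plus strand: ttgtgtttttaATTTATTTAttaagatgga
JUNB, chr19:12793059-12793088, plus strand: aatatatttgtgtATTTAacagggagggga

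The genes differed widely in how well they were counted. IER3 gave 441807 reads over the 32 libraries and EGR1 149603, whereas FOS gave 1441, FOSB 992, IER2 2892 and JUN 2919. In single libraries FOS had 11 to 105 reads and FOSB 7 to 85, so single-library values of these genes carry a counting error that those of EGR1 (2232 to 12277 reads) do not. Levels are given in CPM of reads in named genes, and levels of different genes are not compared, because per-gene capture at the 3′ end was not calibrated. Differences are log2 fold changes from edgeR's quasi-likelihood test, fitted over 11186 genes and all 32 libraries, with the adjusted p over all genes tested and a threshold of 0.05. The study's labels cannot separate more transcription from slower decay in a level, and fewer cells that express a gene and less RNA per cell cannot be told apart.

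Between 5 and 7 of the 10 genes were called higher with tunicamycin, depending on the line and on auxin. In parental vehicle cells 7 of the 10 were called higher and none lower, against 7.65% of tested genes called higher. In parental auxin cells 6 were called higher (7.26% of tested genes), and in tagged cells 5 with vehicle (2.93%) and 5 with auxin (3.02%), with none called lower. EGR1, FOSB, JUN, IER3 and KLF6 were called higher in all 4 comparisons, IER2, JUNB and JUND in 1 each, and FOS and FOSL1 in none. The median log2 change of the 10 was 0.80, 0.95, 0.65 and 0.65 in these 4 comparisons, and that of all tested genes lay between -0.013 and -0.002. Without the smallest library 8, 7, 7 and 7 were called higher. That fit called 30.1%, 9.23%, 7.71% and 8.11% of tested genes in either direction. The genes called in either direction went from 1444 to 3390, from 1169 to 1039, from 452 to 868 and from 464 to 913. The comparison in parental auxin cells depends most on how the spread is estimated: fitted on its own 8 libraries, it called only EGR1 and JUN, 2 of the 10.

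**Figure D2:**
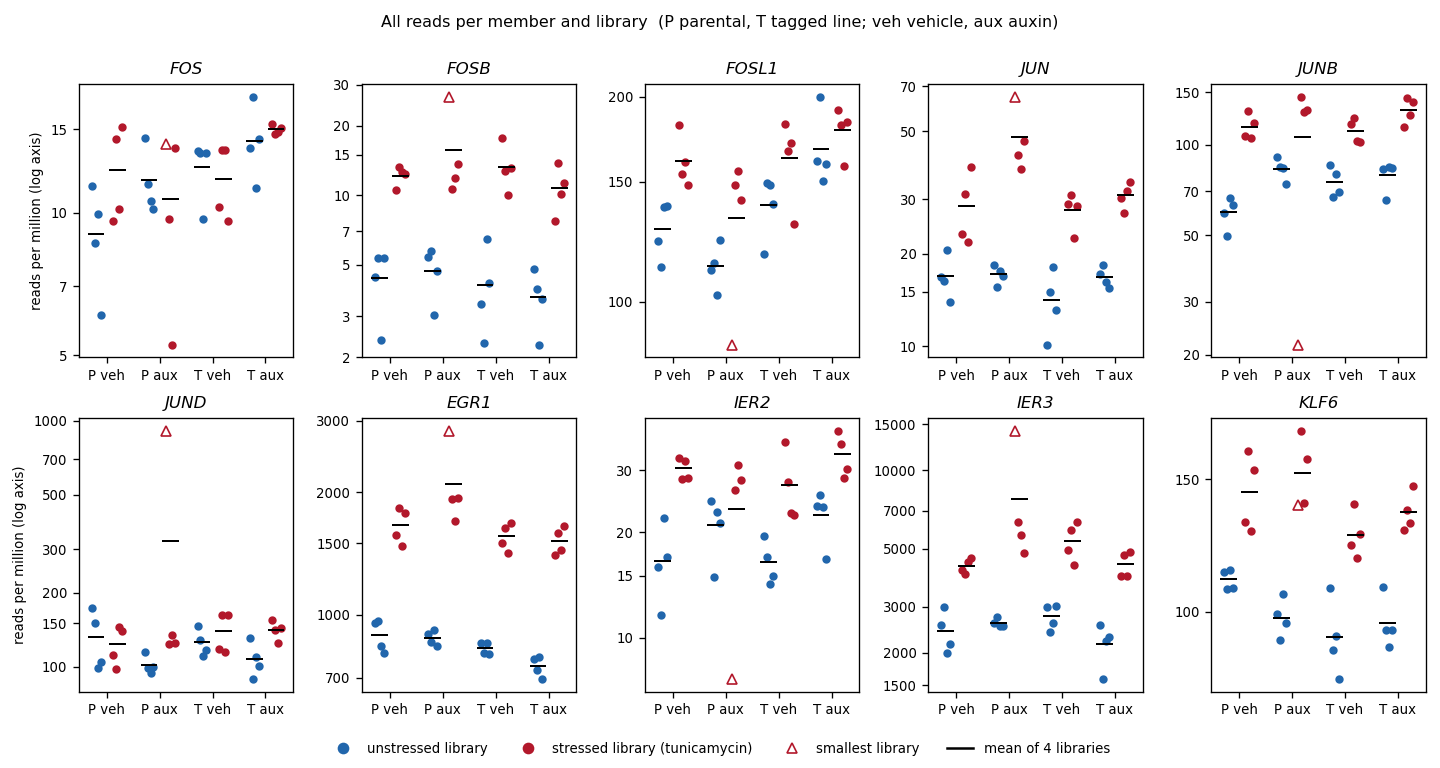
CPM of each gene (log axis) in every library, unstressed in blue and stressed in red, by line and auxin. Black lines are means of 4 libraries and the triangle is the smallest library. EGR1, FOSB, JUN, IER3 and KLF6 have every stressed point above the unstressed points of the same setting, and the smallest library stands apart for IER3, JUNB and JUND.

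EGR1, the zinc-finger factor, had replicates that lay close together. In unstressed parental vehicle cells its 4 libraries had 955.4, 963.4, 836.9 and 804.8 CPM, and in the stressed ones 1574.0, 1829.1, 1479.4 and 1775.5. In tagged vehicle cells the values were 852.4, 806.1, 853.8 and 802.2 CPM unstressed and 1504.1, 1631.6, 1416.2 and 1685.0 stressed. Every stressed library of either line lay above every unstressed one. With auxin, unstressed parental libraries had 836.5 to 916.2 CPM, and stressed ones 2835.4 in the smallest library and 1930.5, 1702.3 and 1941.6 in the others. Tagged auxin libraries had 694.4 to 785.3 CPM unstressed and 1403.5 to 1651.6 stressed, again without overlap. EGR1 was 1.87-fold higher with stress in parental vehicle cells (log2 0.90, SE 0.116, edgeR adjusted p = 1.29e-06) and 1.88-fold in tagged vehicle cells (log2 0.91, SE 0.116, adjusted p = 1.42e-06). With auxin it was 2.4-fold higher in parental cells (log2 1.26, 1.08 without the smallest library) and 2.04-fold in tagged cells (log2 1.03).

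Of the 3 FOS family genes, FOSB alone was called with stress in the edgeR fit of all libraries, and FOSL1 in some alternatives given with it. FOS, the founding AP-1 partner, had 11.4, 8.62, 9.92 and 6.07 CPM in unstressed parental vehicle libraries and 9.63, 14.3, 10.2 and 15.2 in stressed ones, which overlap. In tagged vehicle cells it had 13.5, 13.4, 9.7 and 13.4 CPM unstressed and 10.3, 13.6, 13.6 and 9.61 stressed. No comparison of FOS was called. Its log2 changes with stress were 0.47 (95% interval 0.025 to 0.924, adjusted p = 0.162) and -0.21 (-0.685 to 0.271) in parental cells with vehicle and auxin, and -0.09 (-0.546 to 0.372) and 0.07 (-0.37 to 0.504) in tagged cells. At these counts a change in FOS of the size seen in EGR1 (log2 0.90 or more) lies outside the interval in 3 of the 4 comparisons.

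FOSB, a FOS relative that also pairs with JUN proteins, was the member with the largest fitted change in each of the 4 comparisons. Parental vehicle libraries had 4.45, 5.35, 2.36 and 5.35 CPM unstressed and 10.5, 13.2, 12.6 and 12.3 stressed. Tagged vehicle libraries had 3.38, 2.29, 6.47 and 4.2 CPM unstressed and 17.6, 12.7, 10.0 and 13.1 stressed. The groups did not overlap in either line, nor with auxin, where unstressed libraries had 2.26 to 5.76 CPM and stressed ones 7.71 to 26.7, the highest being the smallest library. The folds were 2.81 (adjusted p = 0.000625), 3.03 (0.00043), 3.24 (0.000317) and 2.96 (0.0011) by edgeR, in parental cells with vehicle and auxin and tagged cells with vehicle and auxin. In parental auxin cells the log2 change was 1.60, and 1.37 without the smallest library. With only the compared groups fitted it was 1.65 there and not called (edgeR adjusted p = 0.0747).

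FOSL1, a longer-lived family member that is prominent in carcinoma cells, had 122.6, 112.6, 137.8 and 138.0 CPM in unstressed and 181.7, 153.9, 160.6 and 148.4 in stressed parental vehicle libraries, which did not overlap. Its log2 change there was 0.33 (SE 0.133, edgeR adjusted p = 0.0924), and without the smallest library, which is not in either group but adds to the shared spread, 0.34 with an adjusted p of 0.0103. In parental auxin cells it was 0.26 (adjusted p = 0.214), and 0.40 (0.0122) without that library. In tagged cells the values were 0.23 (0.535) and 0.09 (0.899), and neither was called with the library left out. DESeq2 called FOSL1 in parental vehicle cells (0.34, adjusted p = 0.0382), as did edgeR on the compared groups only (0.34, 0.0333), and the covariate of T positions per read gave a call in parental auxin cells (0.41, 0.00297).

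**Figure D3:**
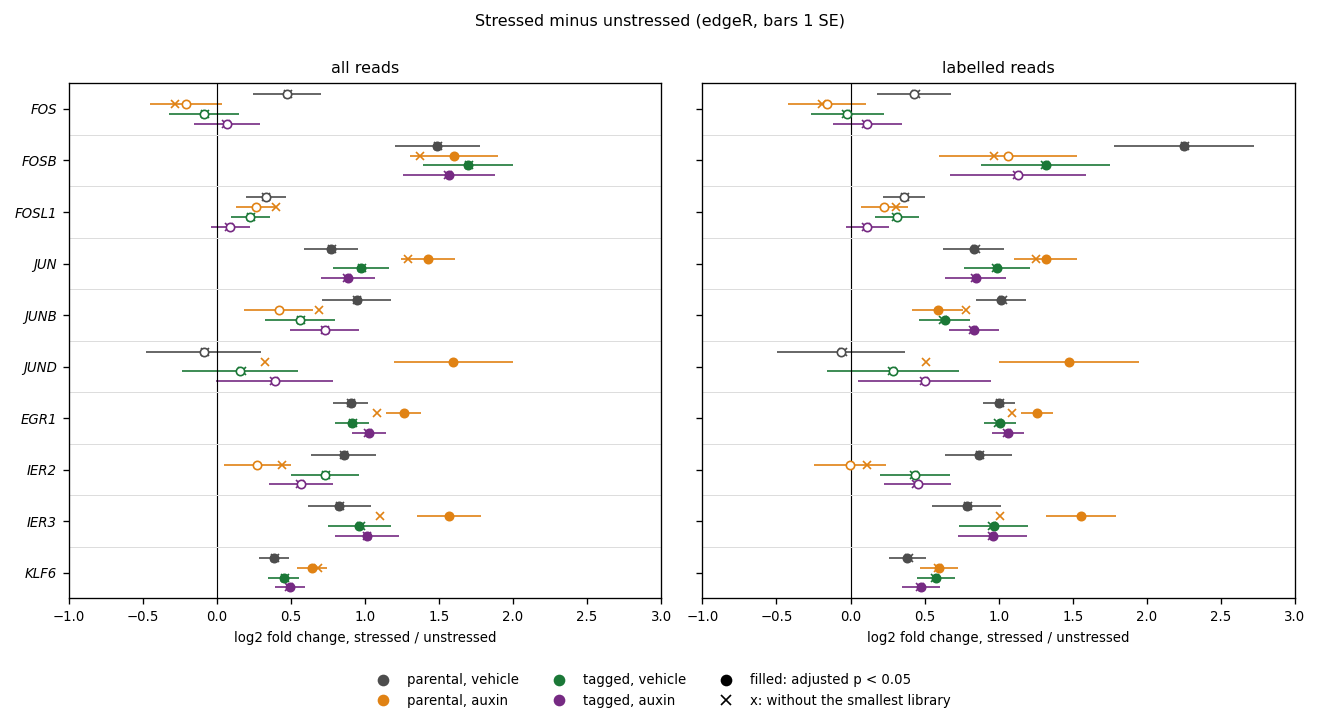
Log2 fold change with tunicamycin (x axis) of each gene in all reads (left) and labelled reads (right), 1 point for each line with vehicle or auxin. Bars are 1 SE from edgeR, filled points have an adjusted p under 0.05, and crosses give the value without the smallest library. FOSB, EGR1, JUN, IER3 and KLF6 are filled and right of 0 in all 4 comparisons of all reads, and the FOS points are open.

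Of the JUN family, JUN, the main AP-1 partner, was called in all 4 comparisons. Parental vehicle libraries had 16.8, 16.3, 20.6 and 13.9 CPM unstressed and 23.1, 31.2, 21.8 and 38.3 stressed, and tagged vehicle libraries 10.1, 15.0, 18.1 and 13.1 unstressed and 28.9, 31.0, 22.4 and 28.6 stressed. Neither pair of groups overlapped. With auxin, parental libraries had 15.6 to 18.4 CPM unstressed and 64.8, 41.9, 37.7 and 46.5 stressed, and tagged ones 15.4 to 18.4 unstressed and 27.0 to 34.3 stressed. The folds were 1.71, 2.69, 1.96 and 1.85, with edgeR adjusted p of 0.00396, 1.25e-06, 0.000969 and 0.00198, in the order parental vehicle, parental auxin, tagged vehicle, tagged auxin. Without the smallest library the parental auxin change was log2 1.29 rather than 1.43.

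JUNB, a weaker activator than JUN that can compete with it, had 59.4, 49.9, 66.6 and 63.2 CPM in unstressed and 106.8, 130.0, 105.3 and 118.3 in stressed parental vehicle libraries, a log2 change of 0.94 (SE 0.233, edgeR adjusted p = 0.00701). In tagged vehicle cells it had 85.6, 66.9, 79.9 and 69.5 CPM unstressed and 117.1, 122.6, 103.0 and 102.5 stressed, and these groups did not overlap either, but the change of 0.56 was not called (adjusted p = 0.246). The smallest library decides this gene: it had 21.6 CPM where the other stressed parental auxin libraries had 144.9, 128.3 and 130.9. Without it JUNB was called in all 4 comparisons, at log2 0.95 (4.92e-09), 0.69 (1.53e-05), 0.57 (0.000187) and 0.73 (1.97e-06).

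JUND, the family member that is usually present in resting cells, moved the other way in that library. It had 910.8 CPM there and 124.3, 134.4 and 125.4 in the other 3 stressed parental auxin libraries, against 115.0, 98.6, 94.8 and 100.1 unstressed. Its log2 change of 1.60 in parental auxin cells (edgeR adjusted p = 0.00994) became 0.32 (adjusted p = 0.288) without the smallest library, though the remaining groups did not overlap. In parental vehicle cells JUND had 174.1, 150.9, 99.0 and 104.5 CPM unstressed and 112.1, 98.0, 145.8 and 140.0 stressed. Its changes in the other 3 comparisons were -0.09, 0.16 and 0.39, and none was called in that fit. With covered T positions per read as a covariate the parental vehicle change turned to 0.37 and was called (SE 0.088, adjusted p = 0.00195), and with only the compared groups fitted the tagged auxin change of 0.39 was called (0.0174), so no direction is given for JUND. In parental auxin cells, adding covered T positions per read to the edgeR fit as a covariate, which is lowest in the smallest library, gave JUND 0.28 (adjusted p = 0.0462), JUNB 0.67 (0.000127) and IER3 1.06 (5.62e-12), with that library kept.

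IER2, a nuclear immediate-early regulator without a classical DNA-binding domain, had 15.9, 11.6, 22.0 and 17.0 CPM in unstressed parental vehicle libraries, and the 4 stressed ones lay between 28.4 and 32.5. It was 0.86 higher there on the log2 scale (SE 0.218, edgeR adjusted p = 0.00858). The groups did not overlap in tagged vehicle cells either, with 14.2 to 19.5 CPM unstressed and 22.4 to 36.1 stressed, where the log2 change was 0.73 (adjusted p = 0.0682). In tagged auxin cells it was 0.57 (0.175), and without the smallest library both tagged comparisons were called (0.00593 and 0.033). In parental auxin cells the groups overlapped, since the smallest library had 7.62 CPM, and the change was 0.27 (0.452), or 0.44 (0.154) without it.

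IER3, a stress-inducible inhibitor of apoptosis and a modulator of kinase signalling, had 2561.4, 2988.1, 1999.9 and 2165.8 CPM in unstressed and 4143.9, 4015.7, 4462.0 and 4609.2 in stressed parental vehicle libraries. Tagged vehicle libraries had 2991.3, 2403.5, 2608.4 and 3024.0 CPM unstressed and 4946.8, 5903.5, 4330.6 and 6322.2 stressed. Stressed libraries were above unstressed ones throughout, in the auxin groups as well. The log2 changes were 0.83 (SE 0.213, edgeR adjusted p = 0.00955) and 0.96 (0.213, 0.00427) with vehicle in the 2 lines and 1.02 (0.214, 0.00236) in tagged auxin cells. The change of 1.57 in parental auxin cells included 14173.0 CPM in the smallest library, against 6326.1, 5646.9 and 4817.8 in the others, and was 1.10 without it.

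KLF6, a zinc-finger factor with a growth-suppressive role in several carcinomas, changed least among those called in all 4 comparisons. Parental vehicle libraries had 113.1, 107.2, 113.7 and 107.6 CPM unstressed and 131.8, 163.7, 128.1 and 154.5 stressed. Tagged vehicle libraries had 107.4, 88.8, 92.8 and 81.3 CPM unstressed and 122.6, 139.1, 117.8 and 126.7 stressed. The stressed libraries lay above the unstressed in each of the 4 pairs of groups. The log2 changes were 0.39, 0.64, 0.45 and 0.49, with edgeR adjusted p from 4.58e-05 to 0.0101, and 0.40, 0.68, 0.46 and 0.49 without the smallest library. Leaving out stressed vehicle replicate 2, with 163.7 CPM, took the parental vehicle change to 0.32 and ended its call.

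Labelled reads report RNA made during the 2 h of s4U. Tested over 8980 genes with their own scaling, 7, 6, 6 and 5 of the 10 genes were called higher with stress and none lower, where 10.1%, 7.91%, 6.92% and 6.94% of tested genes were called higher. The median of the 10 was 0.81, 0.83, 0.61 and 0.67, against -0.028, -0.018, -0.024 and -0.043 for all genes. EGR1, IER3, JUN, JUNB and KLF6 were called in all 4 comparisons. EGR1 had 5104.5 ± 268.4 labelled CPM (CPM among labelled reads; SD, n = 4) in unstressed and 10205.3 ± 527.2 in stressed parental vehicle cells, and 5010.2 ± 82.6 and 10063.0 ± 414.1 in tagged ones, log2 changes of 1.00 and 1.01. JUNB had 345.5 ± 31.4 and 699.3 ± 37.9 labelled CPM in parental vehicle cells, a log2 change of 1.02.

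The unlabelled reads of the same genes were higher as well. Unlabelled EGR1 reads stood at 193.8 ± 35.8 CPM unstressed and 502.7 ± 61.2 stressed in parental vehicle cells (SD, n = 4; no test was run on them), and at 162.3 ± 6.84 and 407.3 ± 34.5 in tagged ones. For IER3 they were 881.4 ± 167.2 and 2091.1 ± 180.0 CPM in parental vehicle cells. FOSB in labelled reads was called in the 2 vehicle comparisons, at log2 2.25 and 1.32, and not with auxin, at 1.06 and 1.13. These changes rest on few reads: 2 to 10 labelled FOSB reads per unstressed parental vehicle library, and 2 to 12 per tagged one. Alternative fits gave 1.96 to 3.08 in parental vehicle cells. IER2 was called with vehicle in parental cells (0.86) and had -0.004 in parental auxin cells. JUND was called in parental auxin cells (1.47, edgeR adjusted p = 0.0419) and not without the smallest library (0.51, 0.0938). FOS and FOSL1 were not called, and FOSL1 in parental vehicle cells was called in 3 of the fits that left out 1 library, at 0.37 to 0.45. Some labelled calls lay close to the threshold: leaving out 1 library of the compared groups ended that of KLF6 in parental vehicle cells for 5 of 8 libraries (0.29 at the lowest, without stressed vehicle replicate 2), that of IER3 there for 2, that of JUNB in parental auxin cells for 5 (0.47 at the lowest, without stressed auxin replicate 2), that of JUND there for 5, and that of FOSB in tagged vehicle cells for 5 (1.02 at the lowest, without unstressed vehicle replicate 2). When labelled reads were scaled by the total of all reads rather than by labelled reads, which leaves the lower overall labelling of stressed libraries in the values, 3 of the 10 were called in parental auxin and 3 in tagged vehicle cells, and EGR1 and JUN were called in all 4 comparisons.

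For 7 of the 10 genes most reads were labelled. Pooled over the 4 unstressed parental vehicle libraries, the median gene had 16.98% labelled reads (9399 genes with at least 100 reads). Of FOS reads 84.1% were labelled, above 99.9% of those genes, and JUNB and EGR1 stood above 99.8%. KLF6, IER2, IER3 and JUN stood above 98.0 to 99.1%, FOSL1 above 87.5% and JUND above 56.6%. FOSB stood above 74.8% on 64 reads there, but above 96.0, 98.6 and 98.2% in the unstressed parental auxin, tagged vehicle and tagged auxin groups, where 48.6, 61.5 and 56.0% of its reads were labelled. The share also depends on how many T positions the reads of a gene cover, so the order of genes is approximate. Conversions per labelled read were 1.86 over all genes, 3.1 for FOS, 2.53 for EGR1 and 1.69 for IER3.

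**Figure D4:**
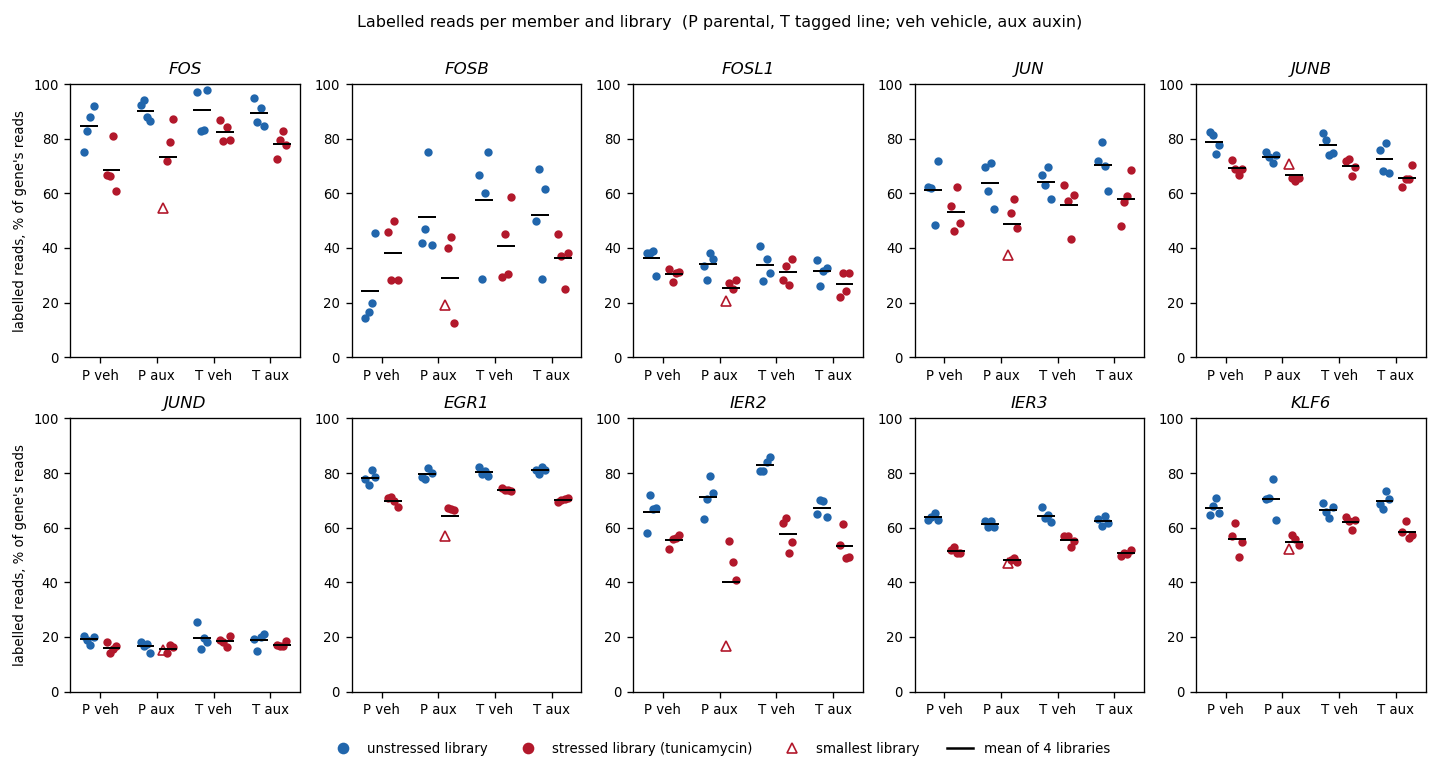
Labelled share (percent of a gene's reads, y axis) of each gene in every library, unstressed in blue and stressed in red, by line and auxin. Black lines are means of 4 libraries and the triangle is the smallest library. All stressed points of EGR1 and IER3 lie below the unstressed points of the same line and auxin setting.

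With stress the labelled share of EGR1 went from 77.9, 75.6, 81.2 and 78.6% to 70.9, 71.1, 69.7 and 67.5% in parental vehicle libraries and from 82.1, 79.8, 80.8 and 78.9% to 74.4, 73.7, 73.7 and 73.6% in tagged ones. That of IER3 went from 62.9, 64.0, 65.3 and 62.8% to 51.8, 53.0, 50.6 and 50.6%, and from 67.4, 63.5, 64.5 and 62.2% to 56.9, 57.1, 53.1 and 55.3%. The groups did not overlap for either gene, and with auxin EGR1 went from 79.5 ± 1.72% to 64.3 ± 4.94% in parental and from 81.1 ± 1.2% to 70.2 ± 0.51% in tagged cells (SD, n = 4). The mean share was lower with stress in 4 of 4 comparisons for 9 of the genes and in 3 of 4 for FOSB. Genes as a whole were lower too: the median gene had a share of 18.92% unstressed and 15.35% stressed in parental vehicle cells, and the median ratio of stressed to unstressed share was 0.806, 0.792, 0.858 and 0.837 in the 4 comparisons. The conversion rate per T was 1.13% unstressed and 0.806% stressed in parental vehicle libraries, and the part of labelling efficiency in the shares was not tested.

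Against this background the calls depended on the scale and on the test. On log2 odds of labelled to unlabelled reads relative to the typical gene (edgeR), 2, 4, 3 and 2 of the 10 were called lower with stress and none higher, where 3.26%, 2.55%, 1.96% and 1.99% of tested genes were called lower. EGR1 had -0.32, -0.71, -0.27 and -0.56 (adjusted p = 0.00394, 7.04e-12, 0.0233 and 4.62e-08) and IER3 -0.39, -0.41, -0.27 and -0.40 (3.06e-07, 1.18e-07, 0.00106 and 2.81e-07). IER2 was called in parental auxin (-1.17, 0.0123) and tagged vehicle cells (-1.55, 0.00147), and KLF6 in parental auxin cells (-0.61, 0.00319). Leaving out the smallest library left these counts at 2, 4, 3 and 2. With limma on log2 ratios of labelled to unlabelled reads, the same scale, the changes were alike in size but fewer were called: EGR1 had -0.30 (adjusted p = 0.443), -0.76 (0.00803), -0.30 (0.415) and -0.60 (0.0495), and IER3 -0.38 (0.134), -0.45 (0.0486), -0.29 (0.273) and -0.43 (0.0751). On the log2 scale of the share itself, centred on the median gene and tested with limma, the EGR1 changes were 0.12, -0.03, 0.08 and 0.01, those of IER3 -0.02, -0.08, -0.01 and -0.08, and only IER2 in parental auxin cells was called (-0.57, adjusted p = 0.0235). In the smallest library IER2 had 6 reads, 1 of them labelled. The mean IER2 share of stressed parental auxin cells was 40.0% with that library and 47.7% without it. This fit was not run without it. For the same proportional loss, log2 odds move more in a gene with a high share than in one with a low share. As a ratio, the stressed EGR1 share was 0.809 to 0.918 and the IER3 share 0.782 to 0.863 of the unstressed one, beside 0.792 to 0.858 for the median gene. The share of HSPA5, an endoplasmic reticulum chaperone, rose from 10.9 to 25.9% in parental vehicle cells (log2 odds 1.85, edgeR adjusted p = 6.5e-42).

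Auxin alone changed none of the 10 genes past the threshold in edgeR. In all reads 0 of 10 were called in unstressed parental, stressed parental, unstressed tagged and stressed tagged cells, where 7.2%, 0.0179%, 0.679% and 0.0179% of tested genes were called in either direction. Without adjustment, 0, 4, 1 and 0 had an edgeR p under 0.05, where 2727, 1775, 2230 and 1529 of 11186 tested genes did. DESeq2 called 0, 2, 0 and 0 of the 10. In stressed parental cells 3 were called by edgeR when auxin replicate 2, 3 or 4 was left out and the smallest library, replicate 1, was kept; they included JUN (0.72, 0.77 and 0.66) and IER3 (0.92, 0.96 and 1.01). IGF2BP3 in parental cells has no mAID tag. The protein was not measured in these counts, and the cause of a change there was not tested. JUNB in unstressed parental cells had 59.4, 49.9, 66.6 and 63.2 CPM with vehicle and 91.4, 84.4, 83.6 and 74.1 with auxin, which did not overlap (log2 0.48, SE 0.235, edgeR adjusted p = 0.207). Without the smallest library, which is in neither group, the change of 0.48 was called (edgeR adjusted p = 0.00185). That fit called 24.9% of tested genes in this comparison, against 7.2% with the library kept. With covered T positions per read as a covariate the JUNB change was 0.12 and not called. These groups had 21.3 ± 1.02 and 22.9 ± 0.36 T positions per read (SD, n = 4). In tagged unstressed cells JUNB had 75.5 ± 8.78 CPM with vehicle and 79.2 ± 9.18 with auxin (SD, n = 4).

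**Figure D5:**
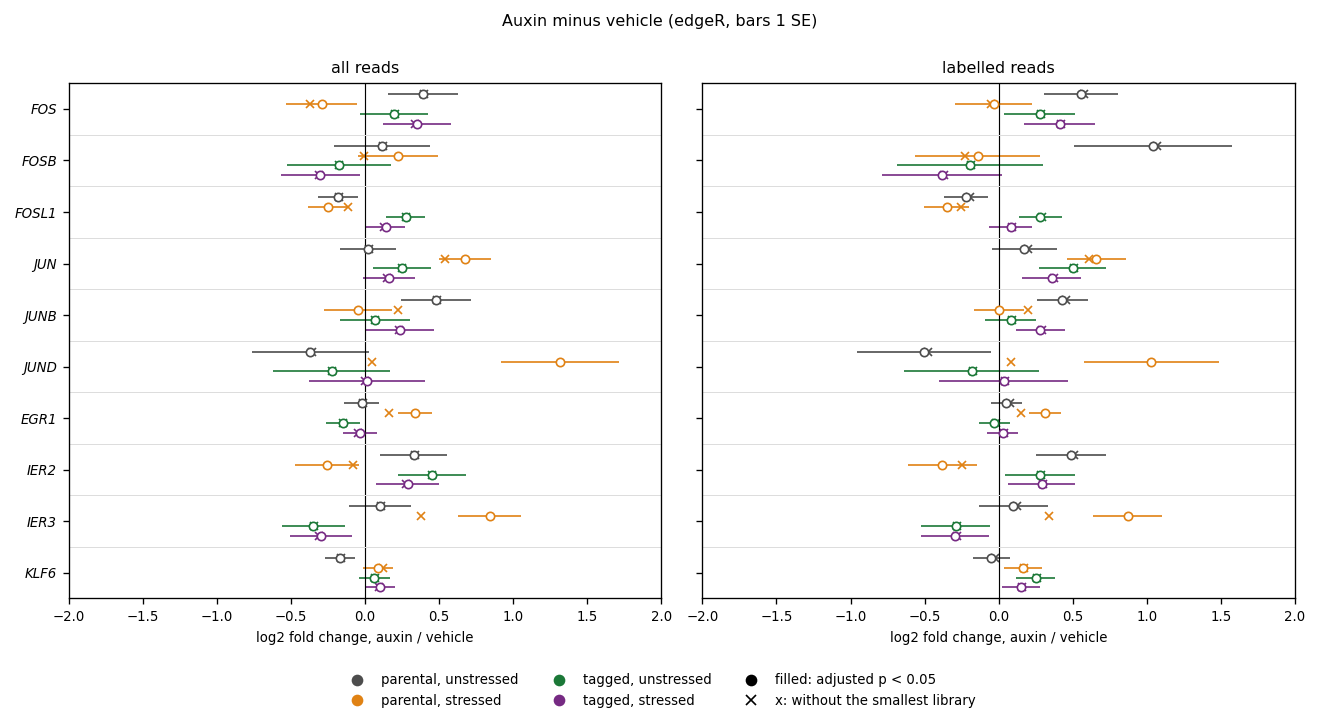
Log2 fold change with auxin (x axis) of each gene in all reads (left) and labelled reads (right), in parental and tagged cells, unstressed and stressed. Bars are 1 SE from edgeR and crosses give the value without the smallest library. No point is filled, so none had an adjusted p under 0.05, and the crosses of JUND and IER3 in stressed parental cells lie far to the left of their points.

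In tagged cells, where auxin has its target, the all-read changes ranged from -0.35 (IER3) to 0.45 (IER2) unstressed and from -0.30 (FOSB) to 0.35 (FOS) stressed. IER3 in unstressed tagged cells had 2991.3, 2403.5, 2608.4 and 3024.0 CPM with vehicle and 2557.6, 1584.6, 2216.4 and 2305.1 with auxin, which overlap. This IER3 change of -0.35 was called when only the compared groups were fitted, in all reads and in labelled reads, and was -0.12 and not called with the covariate of T positions per read. EGR1 had 1559.2 ± 121.9 and 1522.3 ± 117.3 CPM in stressed tagged cells without and with auxin (SD, n = 4). In labelled reads 0 of 10 were called in any of the 4 auxin comparisons (0.612%, 0.0111%, 0.2% and 0.0% of tested genes), and 0 by DESeq2. At an unadjusted p under 0.05 (edgeR) there were 3, 5, 1 and 0, beside 1243, 605, 1111 and 953 of 8980 tested genes. In labelled share 0 of 10 were called (0.212%, 0.0%, 0.0% and 0.0%). There 2, 1, 3 and 0 had an unadjusted p under 0.05 (edgeR), beside 689, 475, 652 and 618 of 8980 tested genes.

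The tagged and parental lines were also compared within each treatment, in which the tag and any other difference between the lines cannot be told apart. In all reads 0 of 10 were called with unstressed vehicle, unstressed auxin, stressed vehicle and stressed auxin (0.241%, 0.322%, 0.411% and 0.429% of tested genes). An unadjusted edgeR p under 0.05 was found for 1, 1, 0 and 6 of them, and for 790, 954, 1290 and 2188 of 11186 tested genes. DESeq2 called 0, 1, 0 and 3 of the 10. FOSL1 with unstressed auxin had 111.4, 113.8, 102.4 and 123.1 CPM in parental and 160.7, 200.2, 150.5 and 159.1 in tagged libraries, which did not overlap. Its log2 difference of 0.57 (SE 0.135) had an edgeR adjusted p of 0.051, and 0.000524 without the smallest library. Without that library 1.92% of tested genes were called in this comparison. With stressed auxin the differences of EGR1 (-0.46, adjusted p = 0.055), IER3 (-0.82, 0.0629) and JUND (-1.13, 0.124) became -0.29 (0.13), -0.36 (0.374) and 0.13 (0.882) without the smallest library. Leaving out parental replicate 2, 3 or 4 there, with the smallest library kept, gave 3, 5 and 4 calls, EGR1 (-0.50, -0.55 and -0.50) and IER3 (-0.90, -0.94 and -0.99) among them. In labelled reads 0 of 10 were called (0.0111%, 0.0891%, 0.1% and 0.0557%), and DESeq2 called 1 with unstressed auxin. There 2, 1, 0 and 5 had an unadjusted p under 0.05 in edgeR, beside 499, 578, 860 and 777 of 8980 tested genes.

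In labelled share, 1 difference between lines was called: EGR1 with stressed auxin, at 66.4 to 67.1% in 3 parental libraries, 56.9% in the smallest one, and 69.5, 70.2, 70.4 and 70.7% in tagged ones. Its log2 odds were 0.40 higher in tagged cells (SE 0.079, edgeR adjusted p = 0.00575), and 0.31 (adjusted p = 0.0878) without the smallest library, so the call rests on that library. The shares of tested genes called between lines were 0.0111%, 0.0223%, 0.0111% and 0.0445%, and the other 3 comparisons called 0 of 10. In those 3 comparisons, 3, 2 and 4 had an unadjusted p under 0.05 (edgeR), beside 483, 465 and 583 of 8980 tested genes.

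Differences of effects were tested directly. In all reads 0 of 10 were called for the auxin effect in tagged minus parental cells, unstressed (0.0179% of tested genes) or stressed (0.0%), for the stress effect in tagged minus parental vehicle cells (0.0%), or for the stress effect in tagged cells with auxin minus vehicle (0.0%). Unadjusted, 1, 5, 0 and 0 of the 10 had an edgeR p under 0.05, as did 666, 2430, 823 and 152 of 11186 tested genes. DESeq2 called 0, 1, 0 and 0 of the 10. The fitted differences for the auxin effect ran from -0.45 (IER3) to 0.46 (FOSL1) unstressed and from -1.31 (JUND) to 0.64 (FOS) stressed, where leaving out the smallest library gave -0.69 to 0.71. In the stressed comparison IER3 (-1.14) was called when parental stressed auxin replicate 4 was left out and the smallest library kept (-1.31). The difference in the stress effect between lines ran from -0.56 (FOS) to 0.25 (JUND), and that between auxin and vehicle within tagged cells from -0.16 (IER2) to 0.24 (JUND). In labelled reads 0 of 10 were called in each (0.0%, 0.0%, 0.0% and 0.0%), and 0 by DESeq2. There 1, 3, 0 and 0 had an unadjusted p under 0.05 in edgeR, beside 462, 1038, 593 and 307 of 8980 tested genes. The ranges above are of fitted values over the 10 genes, and the absence of calls does not show that the effects are equal.

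Other genes of the same response moved in part. Of 29 other immediate-early transcription factors, 27 were tested in all reads, and 13, 10, 6 and 8 were called higher and 0, 1, 0 and 0 lower with stress (median log2 0.64, 0.33, 0.32 and 0.28). Beside these, 7.65%, 7.26%, 2.93% and 3.02% of all 11186 tested genes were called higher, and 588, 357, 124 and 126 of them lower. ATF3, a stress-induced repressor that pairs with JUN proteins, rose by log2 3.06, 2.27, 2.42 and 2.08, and KLF4, a KLF6 relative, by 1.31, 1.10, 1.56 and 1.02. Of 40 other immediate-early genes that are not transcription factors, 38 were tested, and 17, 13, 11 and 12 were called higher and 3, 3, 1 and 1 lower (median log2 0.37, 0.14, 0.26 and 0.29). PPP1R15A, which directs dephosphorylation of the translation factor eIF2, rose by 2.03, 1.62, 1.67 and 1.95.

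The 14 other leucine-zipper factors that can pair within the AP-1 network had 11 tested and 6, 5, 4 and 4 called higher, none lower. JDP2, which binds JUN proteins, rose by log2 1.75, 2.81, 2.30 and 2.13, and ATF2, another JUN partner, by 1.23, 1.02, 1.35 and 1.16. Upstream kinases and factors had 24 of 25 tested, with 2, 1, 1 and 0 called higher and 2, 0, 0 and 0 lower, near the rate over all genes. Of 22 reported AP-1 targets 13 were tested, with 3, 2, 1 and 1 called higher and 2, 1, 0 and 0 lower (medians -0.02, 0.11, -0.11 and 0.14). VEGFA, the endothelial growth factor, was the target called in all 4, at 1.75, 1.26, 1.18 and 1.39. AU-rich decay factors had 14 of 14 tested, with 0, 1, 0 and 0 called higher and 1, 0, 0 and 0 lower. Beside these lists, 7.65%, 7.26%, 2.93% and 3.02% of all tested genes were called higher. The calls among AP-1 targets and decay factors are few, and neither list was tested against all genes.

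The genes most like each member were ranked by Pearson's r of log2 CPM over the 32 libraries, which share the stress contrast and their depth, so r is a description. EGR1 was most like TES (0.984), BTG1 (0.982) and SERP1 (0.977), the first 2 of which stayed in the top 3 over 31 libraries. FOSB was most like BTG1 (0.929), GADD45A (0.928) and TES (0.927), and JUN most like ATF6 (0.921), EGR1 (0.919) and UBE2J1 (0.912), of which 1 and 0 stayed. KLF6 was most like TMED7-TICAM2 (0.936), TICAM2 (0.932), which share sequence, and DUSP6 (0.925), and all 3 stayed. JUNB was most like MARS1 (0.952) and CALR (0.948), IER3 most like BTG1 (0.964) and SDF2L1 (0.956), and IER2 most like PDIA6 (0.903). Of the top 3 of JUNB, IER3 and IER2, 1, 0 and 1 stayed. FOSL1 was most like PACSIN2 (0.813), STK24 (0.805) and MAGED1 (0.788), of which 0 stayed. FOS had no gene above 0.757 (PCIF1). JUND was most like AP2B1 at 0.954, and at 0.807 without the smallest library.

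Some loci overlap others. JUNB lies within antisense HOOK2, FOSB within antisense ERCC1, the 3′ end of IER3 overlaps antisense IER3-AS1, and IER2 overlaps an antisense RNA. Whether the counting used strand is not given in the sources used here, so reads of these partners cannot be told apart from those of the members. In the annotation EGR1 lies on chromosome 5 from 138465479 to 138469303, FOS on 14 from 75278828 to 75282230, FOSB on 19 from 45467996 to 45475179, JUN on 1 from 58780791 to 58784047, JUNB on 19 from 12791486 to 12793315, and IER3 on 6 from 30743199 to 30744547 (GRCh38.p14). FOSB, KLF6 and JUND each have transcripts with the same counts as the one used, which were not added. A RefSeq transcript that matched no symbol followed FOSL1 at r = 0.9995, with 17918 reads against 17591 in the transcript used.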

How the data were processed

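Each of the 32 deposited files holds whole-number counts for 95582 transcript regions: reads, reads with T-to-C conversions, covered T positions and converted T positions. Per the file headers the authors counted with Slamdunk and collapsed the output to transcripts, and per the submitters' processing notes the build was hg38. Versions, thresholds, strand use and the annotation release are not given in the sources used here. RefSeq ids were matched to symbols for 46332 transcripts, and 36.88 to 43.46% of reads per library lay in transcripts that did not match. Each gene took its matched transcript with the most reads. Counts were tested with edgeR 4.0.16 in R 4.3.3 (quasi-likelihood, TMM scaling, which also underlies the CPM, 8 group means, Benjamini-Hochberg adjustment over all genes, threshold 0.05). Labelled reads had a scaling of their own. Labelled share was fitted on paired labelled and unlabelled columns with a term per library. Intervals are 95%. Alternatives used limma 3.58.1 and DESeq2 1.42.0, other scalings and filters, each library left out, and only the compared groups. The limma fit of log2 labelled over all reads, the edgeR share fit without the smallest library and the likeness over 31 libraries were chosen after seeing the data. The tests were also run on simulated counts, for stress in parental vehicle cells only. Every gene had the same spread there and no library was outlying, so that run does not check how the tests handle outlying libraries.

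All 10 genes are named. Of other genes, those of the lists with the largest changes past the threshold are named, and up to 3 of those most like each member. The members and lists were chosen with earlier results of these data known. Replicate numbers were checked for pairing, and no comparison had every same-numbered pair correlated above 0.1, with a lowest correlation of -0.366 and a highest of 0.331. In all 48 replicate pairs the counts differed by more than sampling noise, with chi-square values of 2.07 to 64.5 times their degrees of freedom.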

Additional observations from a re-analysis of the deposited data

Results flagged for a closer look

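In 160 sets of 4 libraries (10 genes, 8 groups, CPM and labelled share), 8 held a library far from the other 3 relative to the range, and chance gives about 1 in 20, here 8. Parental stressed auxin replicate 1, the smallest library, accounts for 4 of them. In it IER3 stood at 14173.0 CPM against 4817.8 to 6326.1, JUND at 910.8 against 124.3 to 134.4, JUNB at 21.6 against 128.3 to 144.9, and the labelled share of EGR1 at 56.9% against 66.4 to 67.1%. FOS stood at 9.7 CPM in tagged unstressed vehicle replicate 3, against 13.4 to 13.5 in the others. JUNB stood at 65.4 CPM in tagged unstressed auxin replicate 2, against 83.1 to 84.3. The labelled share of FOSL1 was 29.8% in parental unstressed vehicle replicate 4, against 38.0 to 38.8%. The labelled share of EGR1 was 74.4% in tagged stressed vehicle replicate 1, against 73.6 to 73.7%, a gap that is large only because the other 3 libraries lie so close together.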

How the results depend on the processing

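Of 1616 log2 changes recomputed under an alternative, 1375 kept their direction and side of the threshold, 152 lost the call, 83 gained one and 6 changed sign. All 160 group levels stayed within 1 SD. Counts of the 10 genes called stayed within 1.5 times in 668 of 773 cases. Comparisons below are in the order parental vehicle, parental auxin, tagged vehicle, tagged auxin for stress.

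In all reads, fitting only the compared groups gave 2 calls for stress in parental auxin cells, 8 in tagged auxin cells, and 1 each for auxin in unstressed parental cells (JUNB), auxin in unstressed tagged cells (IER3) and the line difference with unstressed auxin. Covered T positions per read as a covariate gave 2 calls for auxin in unstressed parental cells and 1 each for auxin in stressed tagged cells, the line difference with unstressed auxin and the difference of auxin effects unstressed, and it turned JUND with stress in parental vehicle cells to 0.368, which was called. DESeq2 gave 2 calls for auxin in stressed parental cells, 1 for the line difference with unstressed auxin, 3 with stressed auxin and 1 for the difference of auxin effects stressed. Size factors of the RLE kind and the longest region per gene each gave 1 for the line difference with unstressed auxin.

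In labelled reads, scaling by total reads gave 3 calls for stress in parental auxin and 3 in tagged vehicle cells. Fitting only the compared groups gave 3 in parental auxin cells, and 1 each for auxin in unstressed parental, unstressed tagged and stressed tagged cells and for the line difference with unstressed auxin and stressed vehicle. The covariate gave 1 each for auxin in unstressed and stressed parental cells and for the line difference with unstressed vehicle and auxin, DESeq2 gave 1 for the line difference with unstressed auxin, and no filter on low counts gave 2 for auxin in stressed parental cells and 1 each for the line difference with stressed auxin and the difference of auxin effects stressed.

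In labelled share, limma on log2 ratios gave 0, 1 and 1 calls (parental vehicle, tagged vehicle, tagged auxin), conversions per T gave 0 in all 4, labelled over all reads gave 0, 1, 0 and 0, and no centring gave 4 in parental vehicle cells. The EGR1 call between lines with stressed auxin went to 0 under each of these and in the edgeR fit without the smallest library. Labelled over all reads turned EGR1 to 0.123, 0.076 and 0.014 (parental vehicle, tagged vehicle, tagged auxin), and conversions per T turned IER3 to 0.067 and 0.032 (parental and tagged vehicle).

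Leaving out 1 library gave 6 to 8, 6 to 7, 5 to 7 and 5 to 7 calls for stress in all reads, and 5 to 8, 4 to 6, 5 to 6 and 5 to 5 in labelled reads. It gave 0 to 1 for auxin in unstressed parental cells and for the line difference with unstressed auxin in both kinds of reads, 0 to 3 for auxin in stressed parental cells, 0 to 5 for the line difference with stressed auxin in all reads, and 0 to 1 for the difference of auxin effects stressed in both. In labelled share, where these fits used limma, the ranges were 0 to 0, 2 to 3, 1 to 1 and 0 to 2, and 0 to 0 for the line difference with stressed auxin. With the replicate number as a block, calls for stress stayed at 7, 6, 5 and 5 in all reads and 7, 6, 6 and 5 in labelled reads, and the limma share fit gave 0, 2, 1 and 0 and 0 for EGR1 between lines. The causes of these differences were not tested. FOS, FOSB, IER2 and JUN are limited by depth, at 1441, 992, 2892 and 2919 reads in all.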
